A study of Homo sapiens with 22 samples.

Results

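TRIM proteins are a large family of ubiquitin ligases and adaptors, and the 9 genes followed here, TRIM5, TRIM14, TRIM21, TRIM22, TRIM25, TRIM26, TRIM34, TRIM38 and TRIM56, encode members that interferon is known to induce or that act in antiviral signalling. They were taken by gene symbol, and all 9 were present and tested in each of 4 tables, among 16948 genes in the SMYD3 knockout table, 18982 in the SMYD3 siRNA table, 18233 in the SMYD3 antisense oligonucleotide (ASO) table and 18349 in the UHRF1 siRNA table. RNA was sequenced in 22 poly(A)-selected libraries of HN-6, a cell line from a human carcinoma of squamous type from the head and neck. Every group had received human interferon-β (IFN-β) at 1000 U/ml for 24 h, so no group shows these genes without interferon. The groups were the SMYD3 knockout line 5-3, which is 1 clone, against parental HN-6 (3 libraries each), cells transfected for 72 h with 1 siRNA to SMYD3 against cells given a control siRNA (3 each), cells exposed for 72 h to ASO 081, which targets SMYD3, against cells exposed to PBS, with no control oligonucleotide (2 each), and cells transfected for 72 h with an siRNA to UHRF1 against a control siRNA of their own (3 each). The study calls these 2 to 3 libraries per condition biological replicates. For the SMYD3 siRNA table, the sample characteristics do not repeat the interferon treatment, which comes from the study's design text.

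Type I interferon binds its receptor on the cell surface and activates transcription factors that bind interferon-stimulated response elements (ISRE) in the promoters of target genes. Many TRIM genes are among these targets. The proteins they encode work at several steps: TRIM25 ubiquitinates the RNA sensor RIG-I, TRIM14 is an adaptor at the mitochondrial antiviral signalling protein MAVS, TRIM56 acts in STING and TLR3 signalling, TRIM38 limits inflammatory signalling, TRIM21 is a receptor for antibodies in the cytosol, and TRIM5, TRIM22 and TRIM34 act on viruses. SMYD3 is a lysine methyltransferase and UHRF1 guides maintenance DNA methylation.

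RefSeq promoter windows matched 8 of the 9 members, all but TRIM22. Those of 4 members are shown, as they are among those whose responses differed most between the treatments. Each window, on GRCh38.p14, has 300 bases from 250 before to 50 after the annotated start, written 5′ to 3′ on the gene's own strand. Capitals mark matches to the ISRE core, which was searched on both strands as GAAA, any pair of bases, GAAA. The windows are chr9:98119173-98119472 (minus strand) for TRIM14, chr11:4393653-4393952 (minus strand) for TRIM21, chr6:30213357-30213656 (minus strand) for TRIM26 and chr7:101085231-101085530 (plus strand) for TRIM56.
TRIM14: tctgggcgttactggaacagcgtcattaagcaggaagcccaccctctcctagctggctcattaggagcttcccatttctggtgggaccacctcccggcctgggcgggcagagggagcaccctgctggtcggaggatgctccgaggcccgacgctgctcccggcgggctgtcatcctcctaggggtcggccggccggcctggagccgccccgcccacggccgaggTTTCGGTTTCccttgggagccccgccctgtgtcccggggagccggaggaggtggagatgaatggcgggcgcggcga
TRIM21: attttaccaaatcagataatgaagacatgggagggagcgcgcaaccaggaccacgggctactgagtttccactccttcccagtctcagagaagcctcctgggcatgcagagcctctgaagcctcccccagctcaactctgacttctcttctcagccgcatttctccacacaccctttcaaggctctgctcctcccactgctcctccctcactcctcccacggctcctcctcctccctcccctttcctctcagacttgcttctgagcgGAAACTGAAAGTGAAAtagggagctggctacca
TRIM26: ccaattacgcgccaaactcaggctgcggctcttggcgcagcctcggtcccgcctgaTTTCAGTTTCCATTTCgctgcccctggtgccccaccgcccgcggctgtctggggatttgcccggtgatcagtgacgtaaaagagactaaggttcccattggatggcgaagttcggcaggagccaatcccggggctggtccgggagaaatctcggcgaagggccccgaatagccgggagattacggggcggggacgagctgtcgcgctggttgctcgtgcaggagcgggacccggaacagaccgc
TRIM56: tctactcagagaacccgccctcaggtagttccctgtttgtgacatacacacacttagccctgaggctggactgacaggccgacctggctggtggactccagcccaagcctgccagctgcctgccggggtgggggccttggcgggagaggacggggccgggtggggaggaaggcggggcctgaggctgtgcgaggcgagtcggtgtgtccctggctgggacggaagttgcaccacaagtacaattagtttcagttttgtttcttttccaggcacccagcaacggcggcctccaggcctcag

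The TRIM21 window held 2 overlapping matches, which begin 17 and 23 bases after the annotated start base, and the TRIM26 window held 2 overlapping matches that begin at -194 and -188, counted from the same base. TRIM14 had 1 match, at -26, and TRIM56 had none. Among the other members, TRIM5 had 1 match at -27, TRIM34 had 1 in the first of its 2 windows at -90, and TRIM25 and TRIM38 had none. In all, 5 of the 8 matched members held the core, against 3.57% of 35116 windows of the same length. The first count is per gene, with either window of TRIM34 enough, and the second is per window. The members were picked for their link to interferon, so their share is not an independent result. A second interferon motif, the gamma-activated site (TTC, any 3 bases, GAA, both strands), was in none of the members' windows and in 7.66% of all windows. These are matches of letters, and binding was not measured.

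Per exon length, TRIM22 was the most abundant member and TRIM34 the least in all 4 groups of the ASO and UHRF1 siRNA tables, which give exon lengths. In TPM, a measure scaled for exon length and library depth, TRIM22 averaged 381.9 ± 5.46 in ASO libraries and 162.1 ± 1.04 in PBS libraries (SD, n = 2 each). It averaged 430.5 ± 4.39 TPM in UHRF1 siRNA libraries and 256.5 ± 16.8 TPM in control siRNA libraries (SD, n = 3 each). TRIM21 came next in both treated groups, at 297.7 ± 3.99 TPM with the ASO and 291.2 ± 5.36 TPM with the UHRF1 siRNA, but stood behind TRIM14 in both control groups. In PBS libraries those neighbours were close, since TRIM14 ranged from 136.9 to 149.9 TPM and TRIM21 from 128.6 to 133.1 TPM with 2 libraries each. In control siRNA libraries of the UHRF1 table TRIM14 ranged from 222.4 to 242.9 TPM and TRIM21 from 197.9 to 212.3 TPM, with no overlap. TRIM56 was the lowest member but TRIM34 in the ASO and PBS libraries, at 37.96 ± 1.53 and 41.40 ± 2.82 TPM. In the UHRF1 siRNA table it passed TRIM26, with 138.9 ± 11.5 TPM in UHRF1 siRNA libraries and 72.05 ± 1.40 TPM in control siRNA libraries, against 133.9 ± 6.31 and 94.16 ± 2.30 TPM for TRIM26, although the treated ranges of these genes overlapped. Below, values are normalized counts as deposited in the knockout table and CPM, reads scaled to the TMM-adjusted library size, in the 3 count tables.

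The targeted genes were lower in their own treated libraries. SMYD3 RNA was at 76.28 to 113.0 normalized counts in knockout libraries and 308.9 to 342.8 in parental libraries. It was at 2.61 to 2.98 CPM with the SMYD3 siRNA and 13.2 to 16.6 CPM with its control, and at 3.28 and 4.19 CPM with the ASO against 21.1 and 22.0 CPM with PBS. UHRF1 was at 1.88 to 2.69 CPM with the UHRF1 siRNA and 63.0 to 66.4 CPM with its control. The SMYD3 siRNA libraries were also lower in UHRF1 (log2 fold change -1.68 ± 0.14, SE), at 2.56 to 3.67 CPM against 8.48 to 11.3 CPM in the control libraries. In the other SMYD3 comparisons UHRF1 was higher. It was at 5619 to 5800 normalized counts in knockout and 4182 to 4231 in parental libraries (0.44 ± 0.03). With the ASO it was at 57.2 and 60.0 CPM, against 44.8 and 46.7 CPM with PBS (0.36 ± 0.06). SMYD3 in turn was lower with the UHRF1 siRNA (-0.57 ± 0.09), at 7.94 to 8.92 CPM against 11.5 to 13.6 CPM in the control libraries. Library depth was 24783605 to 62921144 reads in genes. Apart from TRIM34, every member had between 961 and 44490 reads in each library. Of the squamous epithelial markers, CDH1 was at 235.1 CPM or more and EPCAM at 495.3 CPM or more in all libraries, whereas KRT14 stayed between 0.194 and 1.91 CPM. KRT5 was at 108.5 to 587.7 CPM and SFN at 254.9 to 984.0 CPM. KRT17 was at 29.9 to 385.7 CPM, TP63 at 11.7 to 103.4 CPM and KRT6A at 0.83 to 43.4 CPM. Of these 8 markers, 6 were called higher and 1 lower in the knockout, and 4 higher and 0 lower with the ASO. With each siRNA, 3 were called higher and 3 lower. Shares over all genes are given with each comparison below. The leukocyte markers PTPRC and CD3E reached at most 0.39 CPM in the 3 count tables, and the knockout table has no line for them. Of each list of 6 markers of leukocytes and fibroblasts, the knockout table lists 3. The summed level of its leukocyte markers was 307.2 to 322.9 CPM in knockout and 42.5 to 45.8 CPM in parental libraries, nearly all of it CD68 (log2 fold change 2.98 ± 0.04), while CD14 (-2.92 ± 0.26) and LYZ (-2.11 ± 0.39) were lower in the knockout. In the count tables the leukocyte list summed to 16.1 CPM or less in every library. The fibroblast markers summed to 15.8 to 17.8 CPM in knockout and 59.0 to 63.3 CPM in parental libraries, to 221.1 to 263.3 CPM with the SMYD3 siRNA and 135.0 to 157.9 CPM with its control, to 94.8 to 112.1 CPM with the ASO and 119.0 to 120.7 CPM with PBS, and to 503.9 to 578.4 CPM with the UHRF1 siRNA and 118.6 to 119.7 CPM with its control. With the UHRF1 siRNA the rise was in COL1A1 (504.2 CPM against 82.2 CPM with the control), whereas PDGFRB was lower (-1.19 ± 0.08) and LUM was not called (-0.03 ± 0.08). COL1A2, COL3A1 and DCN stayed at 0.65 CPM or less in the 3 count tables. The endothelial list (4 markers, 2 of them in the knockout table) summed to 1.10 to 1.90 CPM in knockout and 4.496 to 5.59 CPM in parental libraries, to 7.11 to 7.50 CPM with the SMYD3 siRNA and 12.45 to 14.7 CPM with its control, to 9.18 to 9.28 CPM with the ASO and 8.96 to 9.26 CPM with PBS, and to 22.6 to 23.8 CPM with the UHRF1 siRNA and 8.12 to 8.93 CPM with its control. The part of these levels in the results below was not tested.

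All 9 TRIM genes were higher in the SMYD3 knockout than in parental cells, in a table where 42.1% of all genes tested were called higher and 42.5% lower (limma, Benjamini-Hochberg adjusted p under 0.05). Their median log2 fold change was 1.29, against -0.02 over all genes. TRIM14, the MAVS adaptor, changed most: it had 13181, 13491 and 12939 normalized counts in knockout libraries, against 2047, 2474 and 2208 in parental libraries. No knockout library overlapped a parental one, which held for all 9 members; of all genes tested, 42.7% had every knockout library above every parental library. The means were 13204 ± 277 normalized counts in knockout and 2243 ± 216 in parental libraries (SD, n = 3 each), and the log2 fold change was 2.56 ± 0.06 (SE, limma adjusted p = 5.16e-14). Of all genes tested, 1.55% had a higher log2 fold change. In bulk RNA, a change in the mix of cells and a change of RNA per cell cannot be told apart. TRIM14 lies on chromosome 9 (hg38, 98069275 to 98119222, minus strand), where the median log2 fold change of 535 tested genes in this comparison was 0.53; what part this has in the value of TRIM14 was not tested. NANS, whose exons share 422 bases with TRIM14 on the opposite strand, had a log2 fold change of 0.15 ± 0.05.

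TRIM25, the RIG-I ligase, had 12784, 13292 and 12794 normalized counts in knockout libraries, against 3681, 4246 and 4031 in parental libraries (log2 fold change 1.70 ± 0.05, limma adjusted p = 4.74e-14). TRIM21, the antibody receptor, had 4736, 4753 and 4621 in knockout libraries, against 1207, 1478 and 1381 in parental libraries (1.80 ± 0.06, adjusted p = 1.04e-12). In both genes the parental libraries spread more, relative to their mean, than the knockout libraries. TRIM5, which binds the capsid of retroviruses, averaged 5253 ± 108 in knockout and 1887 ± 98.2 in parental libraries (SD, n = 3 each; 1.48 ± 0.04). TRIM26, for which a role in turnover of the transcription factor IRF3 has been described, averaged 5759 ± 110 in knockout and 2358 ± 44.0 in parental libraries (1.29 ± 0.04). TRIM56 averaged 5272 ± 80.3 in knockout and 2313 ± 122 in parental libraries (1.19 ± 0.04). TRIM22, the member with the highest TPM, averaged 12265 ± 494 in knockout and 5773 ± 751 in parental libraries (1.09 ± 0.10), and its parental libraries ranged from 4964 to 6447. TRIM38 averaged 3373 ± 93.8 in knockout and 1969 ± 76.4 in parental libraries (0.78 ± 0.04).

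TRIM34 was the least changed member in the knockout, at 918, 888 and 850 normalized counts against 736, 764 and 789 in parental libraries (log2 fold change 0.21 ± 0.06, limma adjusted p = 0.00256). With upper quartile factors, a scaling that moves the median of all genes by -0.28, its log2 fold change became -0.06 and was not called, while the other 8 members stayed higher. Mitochondrial genes took 4.82% to 4.88% of reads in knockout libraries and 14.9% to 15.7% in parental libraries. With those genes left out and edgeR run on the recovered reads, an alternative chosen after seeing the data, all 9 members were again called higher, from 0.20 ± 0.06 for TRIM34 to 2.54 ± 0.05 for TRIM14.

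**Figure D1:**
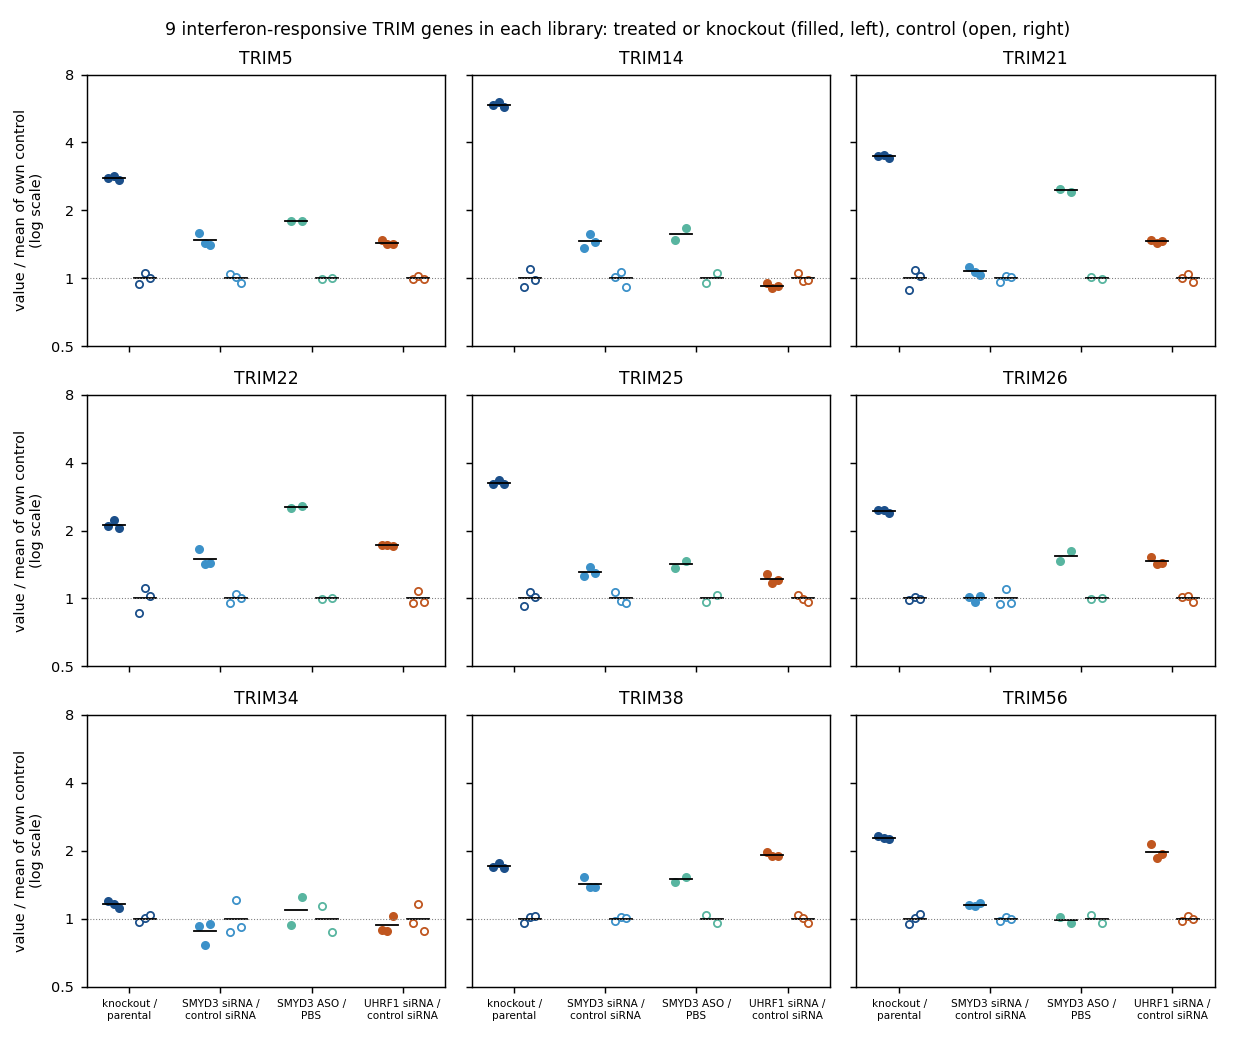
Each of the 9 TRIM genes in every library, as the value divided by the mean of its own control group (log scale); filled points are knockout or treated libraries, open points to their right the controls, and bars are group means. TRIM14 in the knockout sits at 5.89 times the parental mean, and the TRIM34 groups overlap in the 3 count tables.

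With the SMYD3 siRNA, 6 of the 9 genes rose and none fell, also at an unadjusted p under 0.05 or with DESeq2, where 24.2% of all genes were called higher and 24.4% lower (edgeR quasi-likelihood, adjusted p under 0.05). The median log2 fold change of the members was 0.39, against -0.02 over all genes. TRIM22 had 1148, 982 and 996 CPM in SMYD3 siRNA libraries, against 660, 725 and 695 CPM in control siRNA libraries (0.59 ± 0.09, edgeR adjusted p = 9.71e-05). TRIM5 had 327, 296 and 288 CPM with the siRNA, against 214, 207 and 196 CPM with the control (0.56 ± 0.08, adjusted p = 4.52e-05). For both genes every SMYD3 siRNA library lay above every control library, as it did for 27.8% of all genes tested. TRIM14 averaged 406.5 ± 28.9 CPM in siRNA and 279.1 ± 22.1 CPM in control libraries (SD, n = 3 each; 0.54 ± 0.09). TRIM38 averaged 278.2 ± 16.4 CPM in siRNA and 194.7 ± 4.29 CPM in control libraries (0.52 ± 0.08). TRIM25 averaged 298.9 ± 14.9 CPM in siRNA and 228.1 ± 13.7 CPM in control libraries (0.39 ± 0.08).

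TRIM56 had 231, 227 and 234 CPM in SMYD3 siRNA libraries, against 196, 204 and 200 CPM in control libraries. The groups did not overlap, and the log2 fold change of 0.20 ± 0.07 passed the threshold narrowly (edgeR adjusted p = 0.0276). That call was lost with upper quartile factors (adjusted p = 0.0610), with no filter on low counts (adjusted p = 0.0904), with library totals in place of TMM (adjusted p = 0.429) and without any one of control replicate 1, control replicate 2, control replicate 3 or siRNA replicate 3 (adjusted p from 0.0551 to 0.0831). TRIM21 had 152, 145 and 140 CPM with the siRNA and 130, 139 and 138 CPM with the control, a log2 fold change of 0.10 ± 0.07 that was not called (adjusted p = 0.263) and was -0.03 with library totals alone, a scaling that moves the median of all genes by -0.13. TRIM26 had 109, 104 and 110 CPM with the siRNA and 102, 118 and 103 CPM with the control, so that the groups overlapped (0.00 ± 0.08, adjusted p = 0.979). TRIM34 was also not called (-0.17 ± 0.19).

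With the ASO, 7 of the 9 genes rose and none fell, also at an unadjusted p under 0.05 or with DESeq2, where 11.3% of all genes were called higher and 10.3% lower. The median log2 fold change of the members was 0.62, against -0.00 over all genes. TRIM22 had 578 and 586 CPM in ASO libraries, against 229 and 229 CPM in PBS libraries (1.34 ± 0.06, edgeR adjusted p = 7.46e-09). TRIM21 had 149 and 146 CPM in ASO libraries, against 60.9 and 59.5 CPM in PBS libraries (1.29 ± 0.06, adjusted p = 8.61e-09). These members more than doubled in level, and 0.488% and 0.554% of all genes lay above them in log2 fold change. TRIM5 had 201 and 201 CPM with the ASO, against 111 and 113 CPM with PBS (0.84 ± 0.05, adjusted p = 3.10e-07).

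Smaller rises with the ASO were measured for TRIM14, at 275 and 312 CPM in ASO libraries against 177 and 196 CPM in PBS libraries (0.65 ± 0.07), and for TRIM26, at 108 and 120 CPM with the ASO against 73.3 and 74.7 CPM with PBS (0.62 ± 0.06). TRIM38 had 140 and 147 CPM with the ASO, against 100 and 92.5 CPM with PBS (0.58 ± 0.06), and TRIM25 had 172 and 184 CPM with the ASO, against 121 and 131 CPM with PBS (0.50 ± 0.06). In all 7 genes that rose, both ASO libraries lay above both PBS libraries, as they did for 30.5% of all genes tested. TRIM56 did not: it had 112 and 105 CPM with the ASO and 114 and 105 CPM with PBS, and its log2 fold change was -0.02 ± 0.06 (edgeR adjusted p = 0.888). Read counts for TRIM56 were 3132 to 3639 per library in this table, and its log2 fold change lay between -0.08 and 0.05 over the 9 alternatives tried. TRIM34 was not called either (0.13 ± 0.24).

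With the UHRF1 siRNA, 7 of the 9 genes rose and 1 fell, where 32.0% of all genes were called higher and 32.7% lower. The median log2 fold change of the members was 0.54, against -0.01 over all genes. Here TRIM56 and TRIM38 changed most. TRIM56 had 376, 324 and 340 CPM in UHRF1 siRNA libraries, against 171, 179 and 175 CPM in control siRNA libraries (0.99 ± 0.05, edgeR adjusted p = 1.65e-23). TRIM38 had 256, 246 and 246 CPM with the UHRF1 siRNA, against 136, 131 and 124 CPM with the control (0.94 ± 0.05, adjusted p = 2.13e-23). Both genes came close to doubling, at 1.98 and 1.91 times the control mean, and every UHRF1 siRNA library lay above every control library, as for 33.5% of all genes tested.

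TRIM22 had 575, 577 and 570 CPM with the UHRF1 siRNA, against 319, 361 and 320 CPM with the control (0.79 ± 0.05, edgeR adjusted p = 8.84e-20). TRIM26 averaged 131.5 ± 5.41 CPM in UHRF1 siRNA and 90.0 ± 2.78 CPM in control libraries (SD, n = 3 each; 0.55 ± 0.05). TRIM21 averaged 126.4 ± 1.72 CPM in UHRF1 siRNA and 86.7 ± 3.68 CPM in control libraries (0.54 ± 0.05). TRIM5 averaged 192.2 ± 4.45 CPM with the UHRF1 siRNA and 134.1 ± 2.31 CPM with the control (0.52 ± 0.05), and TRIM25 averaged 376.6 ± 19.05 CPM with the UHRF1 siRNA and 308.7 ± 10.8 CPM with the control (0.29 ± 0.05). These 5 genes also had every UHRF1 siRNA library above every control library. TRIM14 was the member that fell, with 263, 250 and 256 CPM in UHRF1 siRNA libraries, against 291, 268 and 271 CPM in control libraries. Every UHRF1 siRNA library lay below every control library, as for 34.6% of all genes tested. The log2 fold change of -0.11 ± 0.05 was just past the threshold (edgeR adjusted p = 0.0436), and the call was lost with no filter on low counts (adjusted p = 0.0543), with a replicate block (adjusted p = 0.0567) and without control replicate 1, siRNA replicate 2 or siRNA replicate 3 (adjusted p from 0.129 to 0.164). NANS, which shares exon bases with TRIM14 on the opposite strand, had a log2 fold change of -0.26 ± 0.06 in this comparison. TRIM34 was not called (-0.10 ± 0.34).

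**Figure D2:**
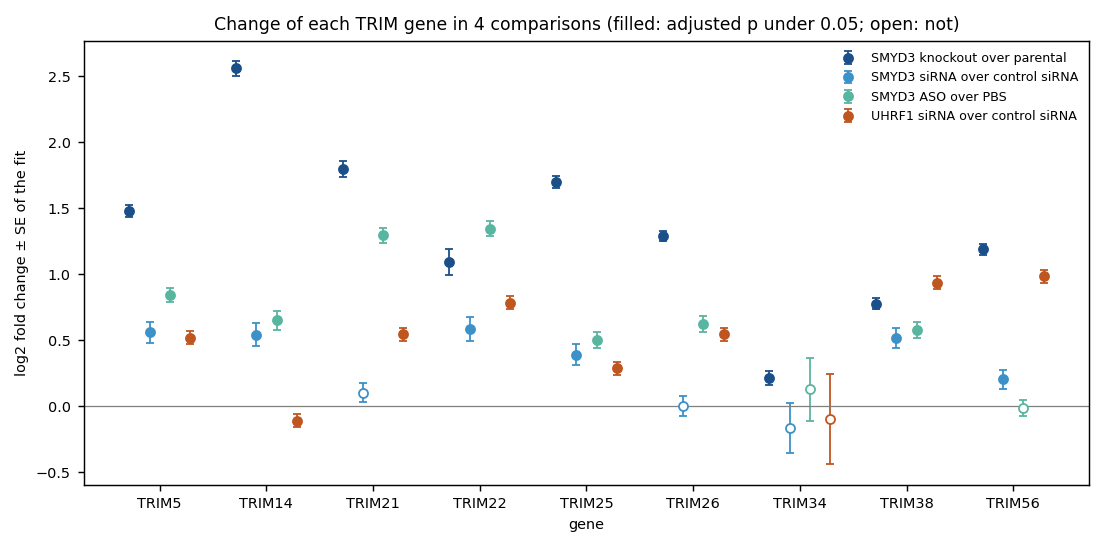
Log2 fold change of each TRIM gene, treated or knockout over its own control, with the SE of the fit as bars, in the 4 comparisons; filled points have an adjusted p under 0.05. TRIM14 has the highest value in the knockout (2.56) and a value below 0 with the UHRF1 siRNA (-0.11), whereas TRIM56 is near 0 with the ASO (-0.02) and near 1 with the UHRF1 siRNA (0.99).

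Across the 4 comparisons, 4 members (TRIM5, TRIM22, TRIM25 and TRIM38) were called higher each time, as were 1.92% of the 12942 genes tested in all 4 tables. With TRIM14, 5 members were called higher in the 3 SMYD3 comparisons, as were 3.41% of the 13050 genes tested in those tables. Whether the size of a change differed between treatments was tested as a difference of log2 fold changes over the 16 libraries of the 3 count tables (edgeR, adjusted over 17457 genes). Each treatment has a table and a control group of its own, so differences between treatments and between experiments cannot be told apart. The SE comes from libraries within groups and does not measure how an effect varies between experiments. The knockout table was normalized separately and its values stand beside these with no test of a difference.

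The SMYD3 siRNA and the SMYD3 ASO, which lower the same RNA by different means, differed for 4 members, each with the smaller value for the siRNA, where 37.9% of all genes differed in either direction. The difference, siRNA minus ASO, was -1.19 ± 0.09 for TRIM21 (SE, edgeR adjusted p = 1.05e-10), -0.75 ± 0.11 for TRIM22 and -0.61 ± 0.10 for TRIM26. For TRIM5 it was -0.28 ± 0.09 (adjusted p = 0.0200), and that call was lost without any one of the 2 ASO libraries, the 2 PBS libraries or SMYD3 siRNA replicate 3 (adjusted p from 0.0533 to 0.0802). The differences were not called for TRIM14 (-0.10 ± 0.11), TRIM25 (-0.10 ± 0.10), TRIM38 (-0.06 ± 0.10), TRIM34 (-0.29 ± 0.35) and TRIM56 (0.23 ± 0.10, adjusted p = 0.0728). The control groups stood at different levels. TRIM21 averaged 135.7 CPM with the control siRNA and 60.2 CPM with PBS, but 145.6 CPM with the SMYD3 siRNA and 147.6 CPM with the ASO. For TRIM26 the controls averaged 107.6 and 74.0 CPM and the treated groups 107.8 and 114.1 CPM, in the same order. For TRIM22 the controls averaged 693.2 and 229.1 CPM and the treated groups 1042 and 581.9 CPM. The part of the control levels in these differences was not tested. The log2 fold change of SMYD3 itself was -2.41 ± 0.12 with the siRNA and -2.52 ± 0.12 with the ASO. UHRF1 was lower with the siRNA (-1.68 ± 0.14) and higher with the ASO (0.36 ± 0.06); the part of this in the members' values was not tested.

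Set against the UHRF1 siRNA, the SMYD3 siRNA differed for 5 members, where 54.7% of all genes differed. The difference, SMYD3 siRNA minus UHRF1 siRNA, was 0.65 ± 0.10 for TRIM14 (edgeR adjusted p = 2.20e-06), and it was below 0 for TRIM56 (-0.78 ± 0.09), TRIM26 (-0.55 ± 0.09), TRIM21 (-0.45 ± 0.08) and TRIM38 (-0.43 ± 0.08). For TRIM22 it was -0.20 ± 0.10 and not called (adjusted p = 0.0849), although 5 of 20 alternatives called it. The ASO minus the UHRF1 siRNA differed for 6 members, where 51.7% of all genes differed. It was higher with the ASO for TRIM14 (0.75 ± 0.11), TRIM21 (0.74 ± 0.09), TRIM22 (0.55 ± 0.11) and TRIM5 (0.31 ± 0.09), and higher with the UHRF1 siRNA for TRIM56 (-1.01 ± 0.10, adjusted p = 1.62e-09) and TRIM38 (-0.37 ± 0.10). TRIM14 and TRIM56 lay on opposite sides in both contrasts with the UHRF1 siRNA, TRIM14 with the larger log2 fold change under each SMYD3 treatment and TRIM56 with the larger one under the UHRF1 siRNA. The control groups stood at different levels here too. With the ASO, UHRF1 siRNA and SMYD3 siRNA, TRIM22 averaged 581.9, 574.2 and 1042 CPM. Its controls averaged 229.1, 333.1 and 693.2 CPM in that order. TRIM56 averaged 108.3, 346.9 and 230.6 CPM with these treatments and 109.5, 175.2 and 200.1 CPM in their controls. The part of the control levels in these contrasts was not tested. Beside the shares over all genes, the counts of 4, 5 and 6 members of 9 do not by themselves set these genes apart.

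**Figure D3:**
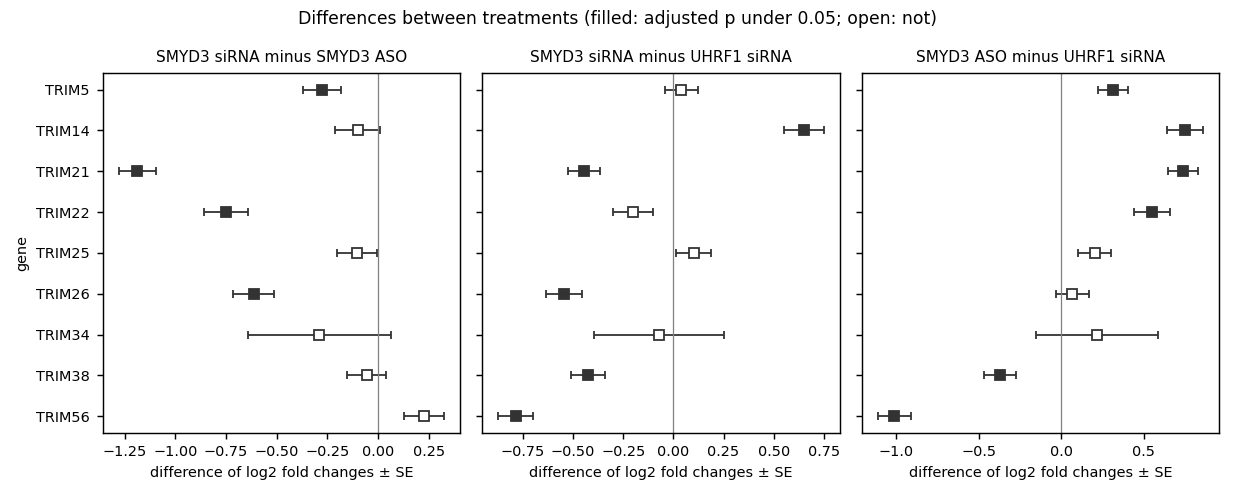
Difference of log2 fold changes for each TRIM gene, with its SE, in the 3 pairs of treatments that have counts; filled squares have an adjusted p under 0.05. TRIM21 lies farthest from 0 between the SMYD3 siRNA and the ASO (-1.19), and TRIM56 lies farthest from 0 between the ASO and the UHRF1 siRNA (-1.01).

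TRIM34 had to be read with its neighbours on chromosome 11. TRIM34 (hg38, 5619764 to 5644398, plus strand), TRIM5 (5663557 to 5938619, minus strand) and TRIM22 (5689697 to 5737089, plus strand) lie side by side. In these deposited coordinates TRIM22 lies inside the span of TRIM5. The RefSeq promoter window of TRIM5 (5685025 to 5685324, minus strand) lies outside TRIM22, and from that start TRIM5 would not span TRIM22. The annotated read-through gene TRIM6-TRIM34 shares 2233 exon bases with TRIM34 on the same strand, 83.0% of the exon bases of TRIM34. In the 3 count tables TRIM34 had 32 to 85 reads per library and TRIM6-TRIM34 had 0 to 2. The knockout table has no line for TRIM6-TRIM34, and there TRIM34 had 586 to 1193 recovered reads per library, or 22.5 to 27.5 CPM, against 0.567 to 2.02 CPM in the count tables. TRIM6, the next gene, lay at 29.4 to 31.8 CPM in the knockout table and at 17.6 to 32.6 CPM in the others. The tables were normalized separately, and no test was made across them. CD68, outside this region, also stood apart, at 40.2 to 322.4 CPM in the knockout table and 0.56 to 1.53 CPM in the count tables. Whether the counting, of shared bases or otherwise, differed between the tables was not tested. TRIM6 itself was not called in the knockout (-0.02 ± 0.05) or with the ASO (-0.02 ± 0.07), fell with the SMYD3 siRNA (-0.37 ± 0.09, edgeR adjusted p = 0.00310) and rose with the UHRF1 siRNA (0.22 ± 0.07, adjusted p = 0.00584), beside TRIM5 and TRIM22, which rose in all 4 comparisons.

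**Figure D4:**
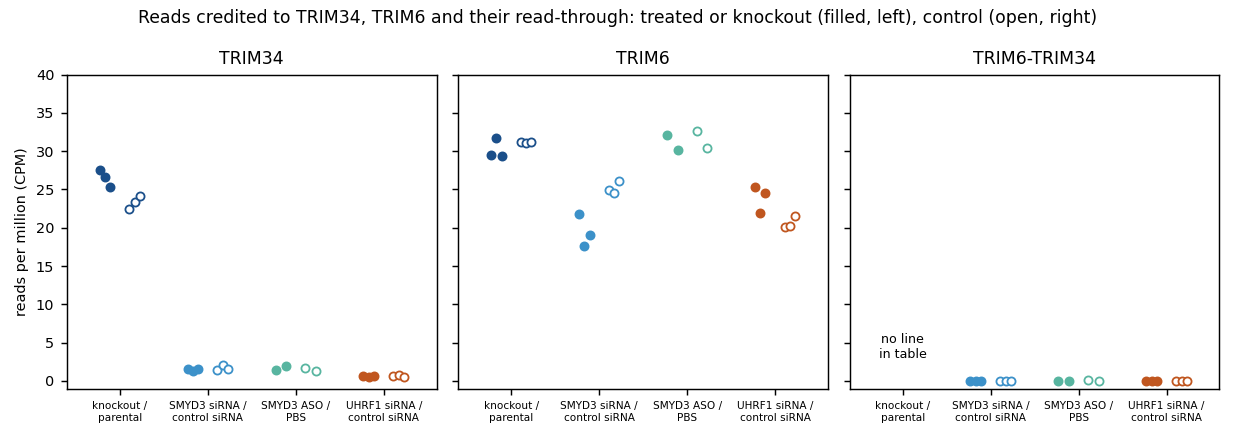
CPM credited to TRIM34, TRIM6 and the read-through TRIM6-TRIM34 in each library, knockout or treated filled and left, control open and right. TRIM34 is at 22.5 CPM or more in the knockout table and at 2.02 CPM or less in the 3 count tables, whereas TRIM6 is at 17.6 CPM or more in all 4.

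The remaining overlaps were smaller. TRIM22 shares 10.8% of its exon bases with OR56B1, which had 0 to 2 reads. TRIM5 shares 7.95% with AC104389.4, which had 28 to 84 reads, and TRIM14 shares 7.70% with NANS, which had 1462 to 2093 reads, in the ASO and UHRF1 siRNA tables. TRIM25 shares 5.66% with AC015912.1 on the opposite strand, which had 0 to 6 reads in those tables. It also shares 1.39% with C17orf67, 0.905% with MIR3614 and 0.842% with DGKE. TRIM38 shares 2.90% with U91328.2, which had 0 to 3 reads. The kit keeps strand, but whether the counting used it is not given in the sources used here.

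PML, also known as TRIM19 and the scaffold of nuclear bodies, is a TRIM gene outside the 9 that is itself interferon-responsive. It had 503, 466 and 480 CPM with the UHRF1 siRNA, against 243, 244 and 237 CPM with the control (1.00 ± 0.05, edgeR adjusted p = 8.92e-25). With the ASO it had 269 and 272 CPM, against 174 and 176 CPM with PBS (0.63 ± 0.05). The knockout value was 0.80 ± 0.04, and the SMYD3 siRNA value was 0.29 ± 0.10 with overlapping groups (adjusted p = 0.0227). As for TRIM56 and TRIM38, its change was larger with the UHRF1 siRNA than with the SMYD3 siRNA (difference, SMYD3 siRNA minus UHRF1 siRNA, -0.71 ± 0.10) and than with the ASO (ASO minus UHRF1 siRNA, -0.38 ± 0.12).

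Of 48 interferon-stimulated genes that are not among the 9, 42 rose and 3 fell in the knockout, 27 rose and 3 fell with the SMYD3 siRNA, 48 rose with the ASO and 45 rose and 1 fell with the UHRF1 siRNA. Their median log2 fold changes were 1.43, 0.30, 0.98 and 0.54, against 1.29, 0.39, 0.62 and 0.54 for the members in the same order. Over all genes tested, 42.1%, 24.2%, 11.3% and 32.0% were called higher in that order, and 42.5%, 24.4%, 10.3% and 32.7% lower. RSAD2, which encodes the antiviral enzyme viperin, was among the most changed each time, with log2 fold changes of 4.85 ± 0.19, 1.28 ± 0.10, 3.11 ± 0.07 and 1.70 ± 0.05. IFIT2, which binds viral RNA, had 2.23 ± 0.07, 0.96 ± 0.11, 2.05 ± 0.06 and 2.98 ± 0.06 in the same order. All 48 of these genes rose with the ASO, whereas TRIM56 and TRIM34 were not called there.

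Among 22 partners and substrates of TRIM proteins, 17 rose and 4 fell in the knockout, 11 rose and 1 fell with the ASO, 15 rose and 2 fell with the UHRF1 siRNA, and 7 of the 21 tested rose and 5 fell with the SMYD3 siRNA. Over all genes tested, 42.1%, 11.3%, 32.0% and 24.2% were called higher in that order, and 42.5%, 10.3%, 32.7% and 24.4% lower. RIGI, IFIH1, IRF7 and ISG15 are also among the interferon-stimulated genes above. The lowest log2 fold changes of partners were -0.86 in the knockout and -0.87 with the UHRF1 siRNA. RIGI, the substrate of TRIM25 listed as DDX58, had log2 fold changes of 3.08 ± 0.07 in the knockout, 0.79 ± 0.09 with the SMYD3 siRNA, 1.38 ± 0.06 with the ASO and 0.87 ± 0.05 with the UHRF1 siRNA. IFIH1, the RNA sensor MDA5, had 2.01 ± 0.13 in the knockout, 1.24 ± 0.06 with the ASO and 1.18 ± 0.05 with the UHRF1 siRNA, but was not called with the SMYD3 siRNA (0.18 ± 0.08, edgeR adjusted p = 0.0698). IKBKE, a kinase of IRF3, had 1.16 ± 0.07 in the knockout, 0.69 ± 0.09 with the SMYD3 siRNA, 0.30 ± 0.07 with the ASO and 1.25 ± 0.06 with the UHRF1 siRNA. ISG15, a ubiquitin-like modifier, had 0.59 ± 0.05 in the knockout, 1.29 ± 0.08 with the ASO and 0.93 ± 0.05 with the UHRF1 siRNA, and was not called with the SMYD3 siRNA (0.11 ± 0.09, adjusted p = 0.374). USP14, a deubiquitinase with which TRIM14 has been reported to work, fell with the SMYD3 siRNA (-0.41 ± 0.07) and the UHRF1 siRNA (-0.54 ± 0.05) and rose in the knockout (0.57 ± 0.04) and with the ASO (0.21 ± 0.06, edgeR adjusted p = 0.0224).

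TRIM genes outside the 9 moved in both directions in each comparison. Of 43 tested in the knockout, 24 rose and 13 fell; of 44 with the SMYD3 siRNA, 14 rose and 9 fell; of 43 with the ASO, 6 rose and 5 fell; and of 43 with the UHRF1 siRNA, 22 rose and 7 fell. Over all genes tested, 42.1%, 24.2%, 11.3% and 32.0% were called higher in that order, and 42.5%, 24.4%, 10.3% and 32.7% lower. The medians of these other TRIM genes were 0.28, 0.09, -0.01 and 0.16. TRIM69 had the largest change of these with the ASO, at 94.8 CPM against 50.0 CPM with PBS (0.92 ± 0.06, edgeR adjusted p = 2.17e-07). It also rose in the knockout (1.25 ± 0.05) and with the UHRF1 siRNA (0.30 ± 0.05), and was not called with the SMYD3 siRNA (-0.06 ± 0.07).

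**Figure D5:**
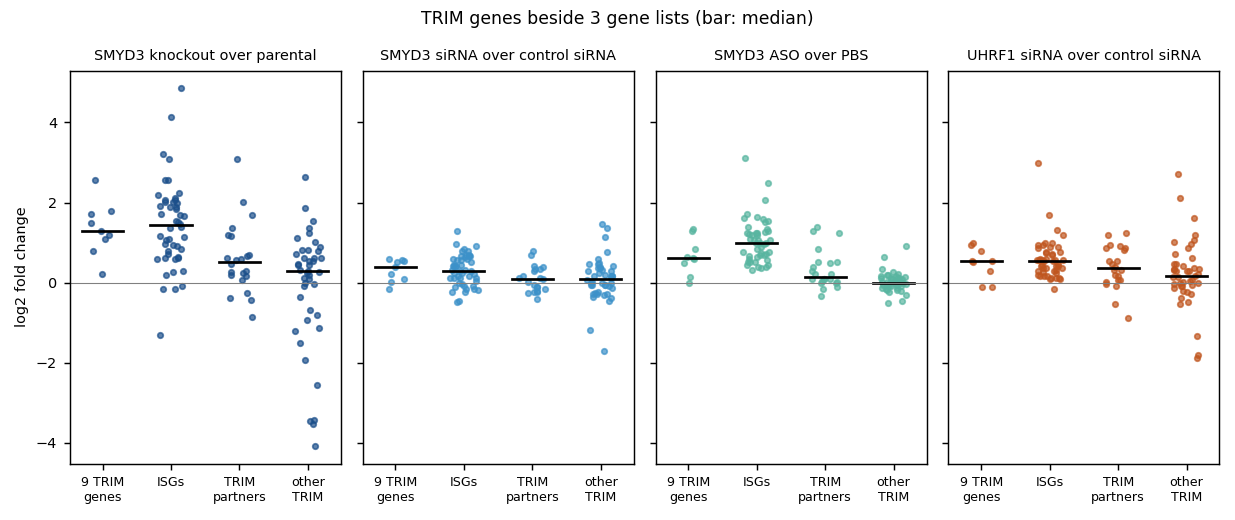
Log2 fold change of the 9 TRIM genes, 48 interferon-stimulated genes (ISGs), TRIM partners and other TRIM genes in the 4 comparisons; each point is a gene and the bar is the median. The 9 genes have medians of 1.29, 0.39, 0.62 and 0.54, and the other TRIM genes have medians of 0.28, 0.09, -0.01 and 0.16, with points on both sides of 0.

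The members also differed in which genes they moved with over the 16 libraries of the count tables, as log2(CPM + 1) minus the mean of the own table. These correlations are descriptions: the libraries share 6 groups, and much of each value reflects those groups. TRIM22 was closest to RSAD2 (Pearson r = 0.995) and SAMD9L (0.993), TRIM5 to DDX58 (0.993) and DTX3L (0.988), TRIM21 to PARP12 (0.987) and ZBP1 (0.985). TRIM25 had a value of 0.966 with DTX3L. TRIM38 was closest to NUB1 (0.986) and GBP4 (0.985), and TRIM26 to PATL1 (0.969) and UBA7 (0.969). TRIM14 was closest to HSPA8 (0.963) and TMEM229B (0.962), and TRIM56 to RABGAP1 (0.988) and HMGCS1 (0.986). TRIM34, with its few reads, reached 0.825 with YBX1P2 and 0.782 with TMC7. Between members the highest value was 0.978, for TRIM5 with TRIM22, and TRIM14 with TRIM56 had -0.02.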

How the data were processed

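Poly(A) RNA of HN-6 cells was sequenced as stranded libraries, per the labels' protocols. The submitters' processing notes name hg38, bcl2fastq and Bowtie, without versions. How reads were assigned to genes, and with which annotation, is not given in the sources used here. For the 2 siRNA comparisons and the ASO, the deposited values are raw read counts per gene. For the knockout, the deposited values are a signal, made by the authors from counts with a scale factor for each library; division by the smallest step gave a whole number for every value within 0.01. Counts were tested with edgeR 4.0.16 (filterByExpr, TMM, robust quasi-likelihood F-test). The knockout signal was tested with limma 3.58.1 (trend, robust) on log2(value + 1), for genes at 10 or more in at least 3 libraries; this scale understates the change of low genes. P-values were two-sided and adjusted by Benjamini-Hochberg over all genes of a table, with 0.05 as threshold. DESeq2 1.42.0 served as an alternative, under R 4.3.3 with Python 3.11.15 for summaries. The fits were also run on simulated counts in which far fewer genes changed than were called here. That run does not show how the fits perform on these data, and its outcome is not given here.

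TPM was computed from counts and the deposited exon lengths. Positions come from the deposited hg38 exon coordinates and promoter windows from RefSeq. Same-numbered replicates were not treated as paired in the tests reported. For replicates 1, 2 and 3, the correlations of their deviations were 0.07, 0.15 and -0.05 in the knockout table. They were 0.23, 0.33 and -0.05 in the SMYD3 siRNA table and -0.02, -0.03 and 0.03 in the UHRF1 siRNA table. In the ASO table both were 0.23, but with 2 libraries in a group these values are equal by construction. The correlations do not decide whether replicates were paired, so a replicate block was among the alternatives. The members and lists were chosen with earlier results of these data known. The genes named are the 9 members, the targeted genes, TRIM6-TRIM34 and PML, genes among the 4 called ones with the largest change in each list and comparison, and the 2 genes most correlated with each member; some genes that these rules name are left out of the text. TRIM6 and the genes that overlap a member were added after their values were seen.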

Additional observations from a re-analysis of the deposited data

Results flagged for a closer look

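Differences between treatments, tested as contrasts over 16 libraries with edgeR, led to a closer look at 15 values (log2). Between the SMYD3 siRNA and the ASO they were -1.19 for TRIM21, -0.75 for TRIM22, -0.61 for TRIM26 and -0.28 for TRIM5. Between the SMYD3 siRNA and the UHRF1 siRNA they were 0.65 for TRIM14, -0.45 for TRIM21, -0.55 for TRIM26, -0.43 for TRIM38 and -0.78 for TRIM56. Between the ASO and the UHRF1 siRNA they were 0.75 for TRIM14, 0.74 for TRIM21, 0.55 for TRIM22, -0.37 for TRIM38, 0.31 for TRIM5 and -1.01 for TRIM56. TRIM14 also moved in opposite directions in all libraries of 2 comparisons, above parental in the knockout and below its control with the UHRF1 siRNA (-0.11); that difference was not tested, because the tables were normalized separately. With 2 to 3 libraries in a group, no single library could be tested as standing apart.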

How the results depend on the processing

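Over 9 to 20 alternatives per comparison, 912 of 954 member values kept their direction and their side of the threshold, 17 lost a call, 7 gained one and 18 changed sign (values below are log2 fold changes). Of the 18, 1 was a called value: in the knockout, TRIM34 (0.21 ± 0.06) became -0.063 with upper quartile factors. The other 17 were not called in the test reported. With the SMYD3 siRNA, TRIM21 became -0.026 with library totals in place of TMM (an alternative chosen after seeing the data), and TRIM26 became -0.13 with library totals, -0.032 with upper quartile factors and -0.0090 with no filter on low counts. When 1 library at a time was left out, TRIM26 ranged from -0.035 to 0.074 with the SMYD3 siRNA. Under the same treatment of the ASO table, where the lone library left in a group is assumed to vary like the others, TRIM34 ranged from -0.092 to 0.33 and TRIM56 from -0.063 to 0.050. TRIM34 ranged from -0.19 to 0.014 with the UHRF1 siRNA. Of the differences between treatments, SMYD3 siRNA minus UHRF1 siRNA ranged from -0.20 to 0.074 for TRIM34 and from -0.020 to 0.080 for TRIM5, and ASO minus UHRF1 siRNA ranged from -0.011 to 0.14 for TRIM26 and from -0.0031 to 0.42 for TRIM34. The count of members that fell with the UHRF1 siRNA, 1 in the test reported, was 0 with no filter and 0 with the replicate block, and between 0 and 1 when a library was left out. All genes called with the ASO numbered 3948, against 2436 with DESeq2 and 6773 with the replicate block; the block left the other counts within 1.5 times (14417 genes in the knockout, 9496 with the SMYD3 siRNA and 11707 with the UHRF1 siRNA). The cause of these changes was not tested. Leaving out mitochondrial genes was run for the SMYD3 siRNA table and, added after seeing the data and on recovered reads, for the knockout, and in both every member kept its direction and its side of the threshold. It was planned but not run for the UHRF1 siRNA table, and it was not run for the ASO table. Both have 0 reads credited to genes with a mitochondrial name. Whether such genes were left out of the counting there is not given in the sources used here, so their mitochondrial share is unknown. Depth limits TRIM34, at 32 to 85 reads per library in the count tables.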

Other observations

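Some TRIM genes outside the 9 had larger log2 fold changes, in either direction, than any of the 9 in the knockout and with both siRNAs. TRIM31, an epithelial TRIM gene, was at 6.52 normalized counts in knockout and 83.9 in parental libraries (log2 fold change -3.54 ± 0.29), and at 48.0 CPM with the SMYD3 siRNA and 110.0 CPM with its control (-1.20 ± 0.07). With the UHRF1 siRNA it rose, at 2.46 CPM against 0.372 CPM in the control libraries (2.72 ± 0.27), and with the ASO it was not called (-0.01 ± 0.18). TRIM55, best known from muscle, rose in the knockout (1.86 ± 0.07), with the ASO (0.33 ± 0.10) and with the SMYD3 siRNA, at 37.1 CPM against 13.3 CPM in the control libraries (1.47 ± 0.08), and fell with the UHRF1 siRNA, at 6.80 CPM against 23.8 CPM in its control libraries (-1.81 ± 0.08). TRIM54, another muscle TRIM gene, was at 0.826 normalized counts in knockout and 18.1 in parental libraries on average, and at 1.34 CPM with the UHRF1 siRNA and 0.306 CPM with its control (2.12 ± 0.32), and it was not called with the SMYD3 siRNA or the ASO. TRIM73 (-3.45 ± 0.17) and TRIM74 (-4.08 ± 0.73) fell in the knockout and with the UHRF1 siRNA (-1.34 ± 0.44 and -1.89 ± 0.61) and were not called with the SMYD3 siRNA or the ASO, but they are near-identical copies whose reads the counting may have split, so each value is uncertain. TRIM7 fell in the knockout (-1.14 ± 0.12), with the SMYD3 siRNA (-1.70 ± 0.13) and with the UHRF1 siRNA (-0.54 ± 0.15). TRIM9 fell in the knockout (-2.55 ± 0.22) and rose with the SMYD3 siRNA (1.35 ± 0.15) and the UHRF1 siRNA (0.41 ± 0.14). Neither was called with the ASO (TRIM7 -0.03 ± 0.13, TRIM9 0.17 ± 0.14). Calls are from limma for the knockout and edgeR for the count tables.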
